A study of Mus musculus with 10 samples.

Results

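Cells of day 12 of a chemical conversion of mouse embryonic fibroblasts (MEFs) that had not been picked from colonies (d12) were compared with the fibroblasts of day 0 (d0), before any compound was given. Members were taken by cell name and depth: cells whose name starts with d12, without those named d12c, in which UMIs of 4000 or more genes were found. That left 67 of 72 d12 cells and 72 of 84 d0 cells, out of 670 cells kept of the 808 in the series. Most d12 cells held the RNAs of fibroblasts and little of XEN markers, and yet many RNAs differed from d0. Higher by over 2 in log2 units were 15 of 28 genes of the cAMP response and 12 of 21 of retinoic acid handling, and lower were 38 of 53 genes of the G2 and M phases, against 7.84% and 4.56% of the genes past a level filter. Counted per spiked-in ERCC RNA in place of a cell's own RNA, they were 6, 3 and 49. On that scale 164 of all 23197 genes were higher and 2167 lower, in place of 693 and 403. Of the 23197 genes, 16425 had a UMI in these cells.

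The study turned MEFs into cells like extra-embryonic endoderm (XEN, the embryo's lineage that lines the yolk sac) and sequenced single cells, picked by hand after digestion, on 10 days. MEFs came from E13.5 embryos of ICR mice, without head, limbs and viscera, and grew in a medium with fetal bovine serum. The d12 cells had then spent 12 days in XEN reprogramming medium, which held knockout serum replacement, fetal bovine serum and basic FGF and was changed every 4 days, with C6FAE: CHIR99021, RepSox (the compound written as 6), Forskolin, AM580 and EPZ004777. All 10 samples carry the strain label C6FAE, d0 included, and the methods of the study also list valproic acid for this medium. Since the compounds, the medium and the days in culture all differ between d0 and d12, their parts in any difference cannot be told apart.

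Each compound acts on a known pathway. CHIR99021 inhibits GSK3, the kinase that marks beta-catenin for destruction, and so turns on genes of the Wnt pathway, whereas RepSox blocks ALK5, the receptor through which TGF-beta acts. Forskolin activates the enzyme that makes cAMP, whose kinase PKA phosphorylates the transcription factor CREB, while AM580 activates a retinoic acid receptor and EPZ004777 inhibits the histone methyltransferase Dot1L. Fibroblasts of the embryo divide fast in serum, secrete collagen-rich matrix, and make actin stress fibres whose genes are driven by the factors SRF and YAP.

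Values are counts of unique molecular identifiers (UMIs, tags that each mark 1 captured RNA molecule) per gene and cell, given as CPM, a gene's share of all gene UMIs of its cell. A difference is the mean of log2(CPM + 1) over d12 cells minus that over d0 cells. A gene is called higher or lower where it passes 2 or -2. This is 4-fold between the geometric means of CPM + 1, and the ratio of mean CPM can differ from it. Kept d0 cells had between 49225 and 3679274 UMIs with a median of 344195, and kept d12 cells between 49202 and 2102938 with a median of 768565. The median number of detected genes was 6719 at d0 and 7938 at d12. The 10 samples are batches that no cell name shows, so each day was taken as 1 sample, no test was made, and the intervals given (95%) cover counting error only.

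ERCC RNAs, a synthetic mix added to the lysate, made up a median of 3.28% of the UMIs of d0 cells (1.19% to 8.64%) and 11.0% of those of d12 cells (5.03% to 26.4%). All 67 d12 cells lay above the median d0 cell in this share, and 52 lay above the highest. A median d0 cell held 29.5 gene UMIs per ERCC UMI and a median d12 cell 8.06. If every cell received the same amount of the mix, d12 cells yielded fewer RNA molecules. The amount added to each cell is not stated, and cell size, capture and the amount added cannot be told apart here. CPM differences are therefore relative to the other RNAs of a cell, and on a scale of UMIs per ERCC UMI the median gene past the level filter lay at -1.31 in place of -0.02. Of 29 gene lists with a median difference above 0, 13 had one below 0 on that scale and 14 stayed above. The bracket after a list's median therefore gives its median and calls per ERCC UMI. Those calls stand against 164 higher and 2167 lower of all 23197 genes on that scale. Only 16425 of these genes had a UMI in a kept d12 or d0 cell. The calls are thus a larger share of the genes with UMIs, and a share past the level filter was not taken on that scale.

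Before the results, the d12 cells were checked against their name. For each cell the mean log2(CPM + 1) of 12 fibroblast markers was subtracted from that of 12 XEN markers. This value ran from -7.29 to -0.66 in d0 cells, with a median of -4.91, and from -7.95 to 0.17 in d12 cells, with a median of -6.12. It was above 0 in 2 of 67 d12 cells (2.99%, exact Clopper-Pearson interval 0.364% to 10.4%), against 0 of 72 d0 cells, 29 of 51 kept cells from day 12 colonies and 37 of 38 kept cells of day 20. With summed CPM, and fibroblast markers without the collagens, 4 of 67 d12 cells held more of the XEN list. By either measure most d12 cells lay on the fibroblast side.

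A group of 4 d12 cells stands apart. They include both cells above 0, and each held between 12762 and 21370 CPM of *S100g*, the gene of a small calcium-binding protein, while the next d12 cell held 2223 CPM. In the same 4 cells *Sox17*, an endoderm transcription factor, had 1429, 1582, 443 and 188 CPM and *Col1a1*, a chain of type I collagen, had 196, 250.1, 235 and 263 CPM. The median d12 cell had 5.65 CPM of *Sox17* and 2173 CPM of *Col1a1*. Without these 4 cells, an alternative added after their values were seen, 730 genes were higher and 439 lower, in place of the counts that follow.

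Of 23197 genes, 693 were higher at d12 than at d0 (2.99%) and 403 were lower (1.74%). Over the 8834 genes with a mean of at least 1 across the means of both days (the level filter), the same counts are 7.84% and 4.56%. A difference beyond 2 or -2 by itself places a gene past this filter, so every called gene passes it. List counts run over all members, past the filter or not. Lists share some genes, which count in each, such as *Stc1* in those of the cAMP response and of insulin-like growth factors. Their counts are therefore not independent. A difference over 4 was found for 118 genes upwards and for 23 downwards. Of the 693 higher genes, 13 had no UMI at d0 and 247 had UMIs in every d12 cell. Cells of the 2 days overlap for nearly every gene: in 2 genes (0.00862%) the lowest d12 cell was above the highest d0 cell, and in 0 genes the reverse. Scaled per ERCC UMI, 164 genes were higher by over 2 and 2167 lower.

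*Stc1* had the largest upward difference of all genes. It encodes stanniocalcin, a secreted glycoprotein that blocks a protease of IGF-binding proteins, and lies at chr14:69647295-69659861 of NCBIM37 (mm9). In d0 cells it had 0, 3.34 and 106 CPM in the lowest, the median and the highest cell, and in d12 cells 75.7, 2524 and 11609.7 CPM. The lowest d12 cells overlap with the highest d0 cells, but 63 of the 67 d12 cells lay above every d0 cell. With 166 UMIs at d0 (exact Poisson interval 142 to 193) and 186971 at d12 (186124 to 187820), the mean CPM was 352-fold higher and the difference 8.76.

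Next to it among named genes with a d0 signal came *Thbd*, which encodes thrombomodulin, a receptor that restrains clotting, with a difference of 7.28. Its median was 2.49 CPM at d0 and 926 CPM at d12, and 49 d12 cells were above the highest d0 cell. Several further genes of the 20 largest upward differences encode enzymes. These are *Pla1a*, a phospholipase (6.91), *Pla2g7*, which degrades platelet-activating factor (5.89), *Dio2*, the deiodinase that makes active thyroid hormone (6.83), and the carboxypeptidase genes *Cpxm2* (6.58) and *Cpz* (5.84). Among membrane proteins were the potassium channel gene *Kcnk10* (6.71), the nucleotide receptor gene *P2ry2* (5.91) and the amino acid transporter gene *Slc7a8* (5.84). *Rgcc*, a regulator of the cell cycle named for its response to complement, had 6.37, *Socs3*, a feedback inhibitor of cytokine receptors, 6.02, and *1810011O10Rik* 6.19. *Pla2g7* shows how broad such a difference was: 66 of 72 d0 cells held a UMI of it, yet 62 of 67 d12 cells lay above all of them.

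**Figure D1:**
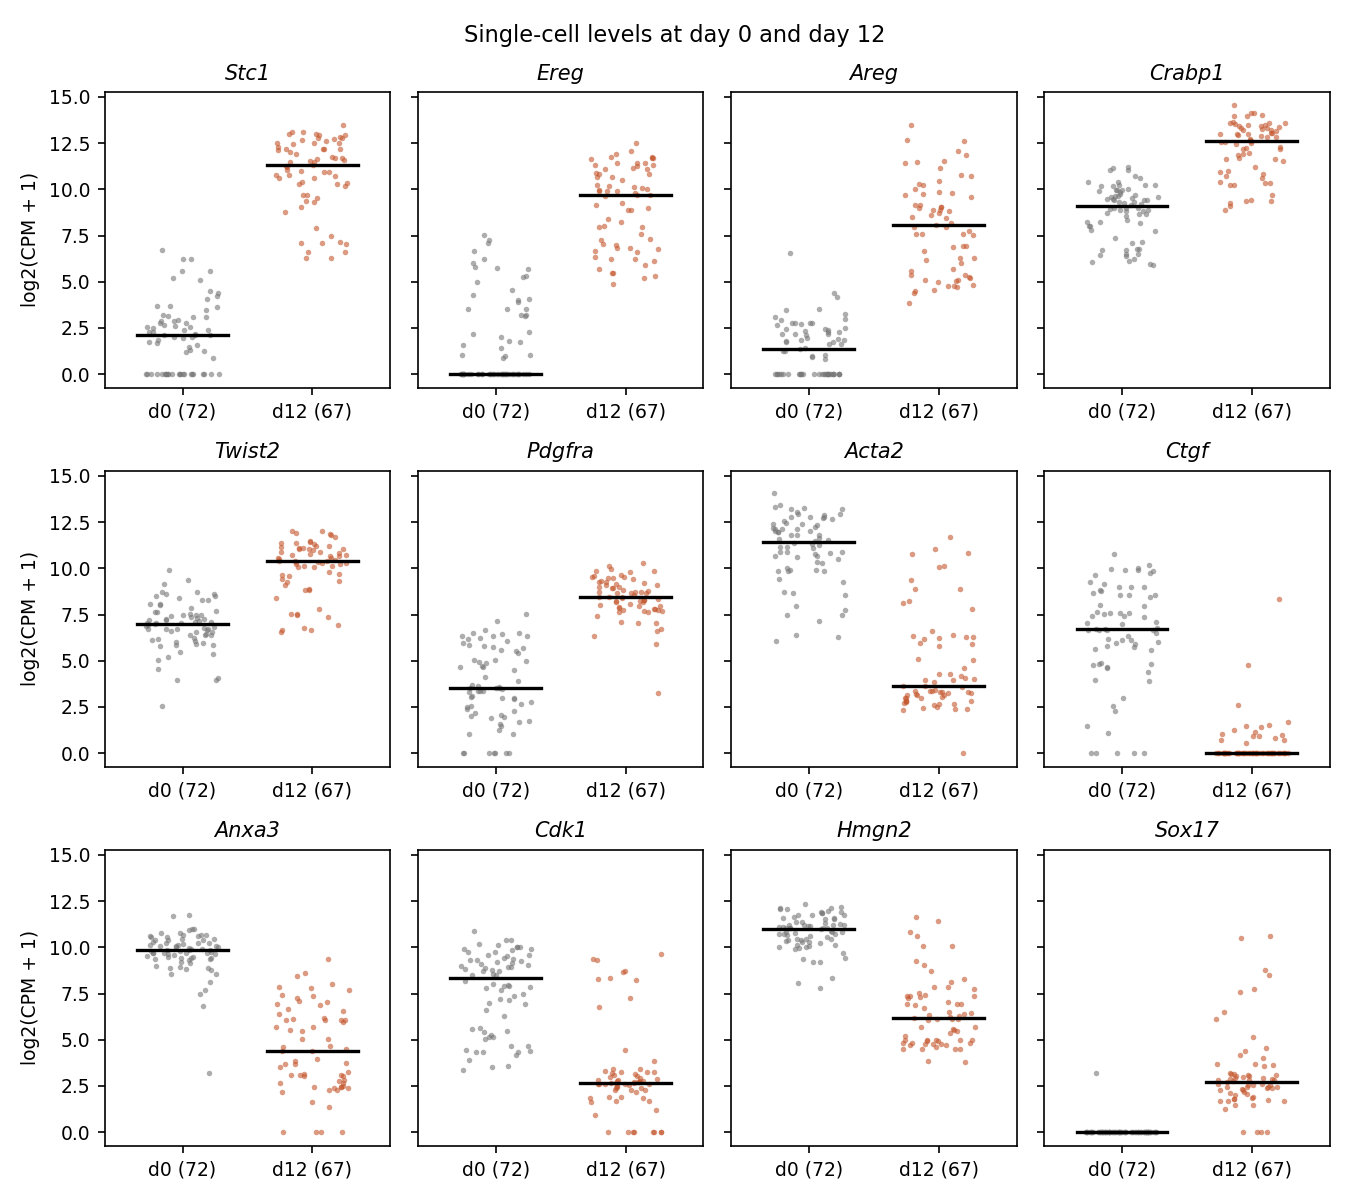
Levels of 12 genes in single cells, on a log2(CPM + 1) axis. Each point is 1 of 72 d0 cells or 67 d12 cells and each bar is a median. Most d12 cells lie above the d0 cells for *Stc1* and below them for *Acta2*, and the days overlap in every panel shown.

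Genes of the cAMP response and of retinoic acid handling were the lists with the largest medians, 2.16 and 2.13, and per ERCC UMI the second was the larger (0.88 and 1.01). A cAMP signal activates CREB, which switches on genes such as *Crem* within the hour, and phosphodiesterases then remove the cAMP. Of 28 listed genes 15 were higher (53.6%) and 1 lower, with a median difference of 2.16 (0.88 per ERCC UMI, 6 higher and 1 lower). The summed CPM of the list had a lowest, median and highest value of 235, 909 and 1898 in d0 cells and 731, 5628 and 24317 in d12 cells, and 63 d12 cells were above the highest d0 cell. *Stc1* was the member with the highest mean at d12, with 3309.8 CPM of a summed mean of 7487 CPM. At d0 it had 9.42 CPM of 899 CPM. The other named members were the growth factor gene *Areg* (6.61), *Crem*, a CREB relative that shuts the response down (4.30), the secreted peptide precursor gene *Vgf* (4.13) and *Ptgs2*, the prostaglandin synthase (4.11).

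Single cells show how widespread these differences were. *Crem* had a median of 4.47 CPM at d0 and 139 CPM at d12, with UMIs in 54 of 72 and in all 67 cells. For *Ptgs2* the medians were 1.72 and 139 CPM. *Vgf* was found in 14 of 72 d0 cells (19.4%, 11.1% to 30.5%) and in 65 of 67 d12 cells (97.0%, 89.6% to 99.6%). The d12 cells were the deeper, and with every cell thinned to 50000 UMIs the *Vgf* shares were 7.04% and 54.5%.

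Immediate early factors, which growth factors, stress and cAMP all induce without new protein synthesis, had 10 of 20 higher, 0 lower and a median of 1.66 (0.15 per ERCC UMI, 1 higher and 2 lower). *Ier3*, a survival factor, had a median of 32.2 CPM at d0 and 762 CPM at d12 and a difference of 4.36. *Junb* and *Fosl2*, both subunits of the factor AP-1, had 3.36 and 3.20, and the zinc finger factor genes *Egr2* and *Egr3* both had 3.27. *Egr1*, a member that serum induces, did not pass 2: it had 6.66 CPM in the median d0 cell and 19.1 CPM in the median d12 cell, a difference of 0.95.

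Ligands of the EGF receptor were among the largest differences. *Ereg* and *Areg*, which encode epiregulin and amphiregulin, are neighbours at chr5:91503643-91522675 and chr5:91568641-91577458 of mm9, with 7.26 and 6.61. *Ereg* had 0, 0 and 184 CPM in the lowest, median and highest d0 cell and 28.0, 834 and 5719.7 CPM at d12. *Areg* had 0, 1.61 and 94.7 CPM at d0 and 13.2, 267 and 11303 CPM at d12. For these genes 47 and 45 d12 cells were above the highest d0 cell. The wider list of EGF and FGF ligands, receptors and feedback genes had 4 of 31 higher, 1 lower and a median of 0.61 (0.00 per ERCC UMI, 2 higher and 1 lower). Besides the ligands, *Spry4* and *Spred1*, which damp the ERK pathway, were higher by 3.58 and 3.04, whereas *Spry1*, of the same family, differed by -2.34. No other EGF ligand of the list passed 2.

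Retinoic acid is made from retinol by dehydrogenases, carried by the CRABP proteins and destroyed by CYP26 enzymes, whose genes its receptors induce. Of 21 genes of this system 12 were higher (57.1%) and 0 lower, with a median of 2.13 (1.01 per ERCC UMI, 3 higher and 0 lower). *Crabp1* gave most UMIs, with 59.8, 540.2 and 2343 CPM in the lowest, median and highest d0 cell and 464, 6239 and 23747 CPM at d12. Its range overlaps between the days, but 50 d12 cells were above the highest d0 cell, and the difference was 3.39. *Crabp2* differed by 3.74, the retinol carrier gene *Rbp4* by 6.11, *Cyp26b1*, which degrades retinoic acid, by 4.73, and *Aldh1a1*, which makes it, by 3.47. *Aldh1a1* had UMIs in 8 of 72 d0 cells and 63 of 67 d12 cells, with a d12 median of 5.32 CPM. XEN RNAs showed such low levels in many d12 cells too, and carry-over between cells was not tested. The summed list had a median of 824 CPM at d0 and 8143 CPM at d12, with 59 d12 cells above every d0 cell.

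Direct targets of beta-catenin include its own inhibitors. Of 22 target genes 8 were higher (36.4%) and 0 lower, with a median of 0.91 (0.24 per ERCC UMI, 4 higher and 1 lower). *Notum*, an enzyme that inactivates Wnt proteins, had medians of 1.17 and 112 CPM and a difference of 4.95. *Nkd1*, a further feedback inhibitor, had 4.06, *Lef1*, a partner of beta-catenin on DNA, 3.68, *Dkk3*, of the Dickkopf family, 4.83, and the receptor gene *Tnfrsf19* 3.63. *Ccnd1*, the cyclin D gene that is often counted among the targets, went the other way with -1.54. Among 24 Wnt ligands and secreted antagonists 7 were higher and 1 lower, with a median of 0.56 (0.13 per ERCC UMI, 2 higher and 1 lower). They were led by *Dkk3* and by *Sfrp1*, a decoy of Wnt proteins (4.05), followed by the ligand genes *Wnt2* (3.10) and *Wnt5a* (2.27) and by *Wif1*, a Wnt inhibitor (2.29). *Dkk3* and *Wif1* also count among the higher genes of the target list.

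**Figure D2:**
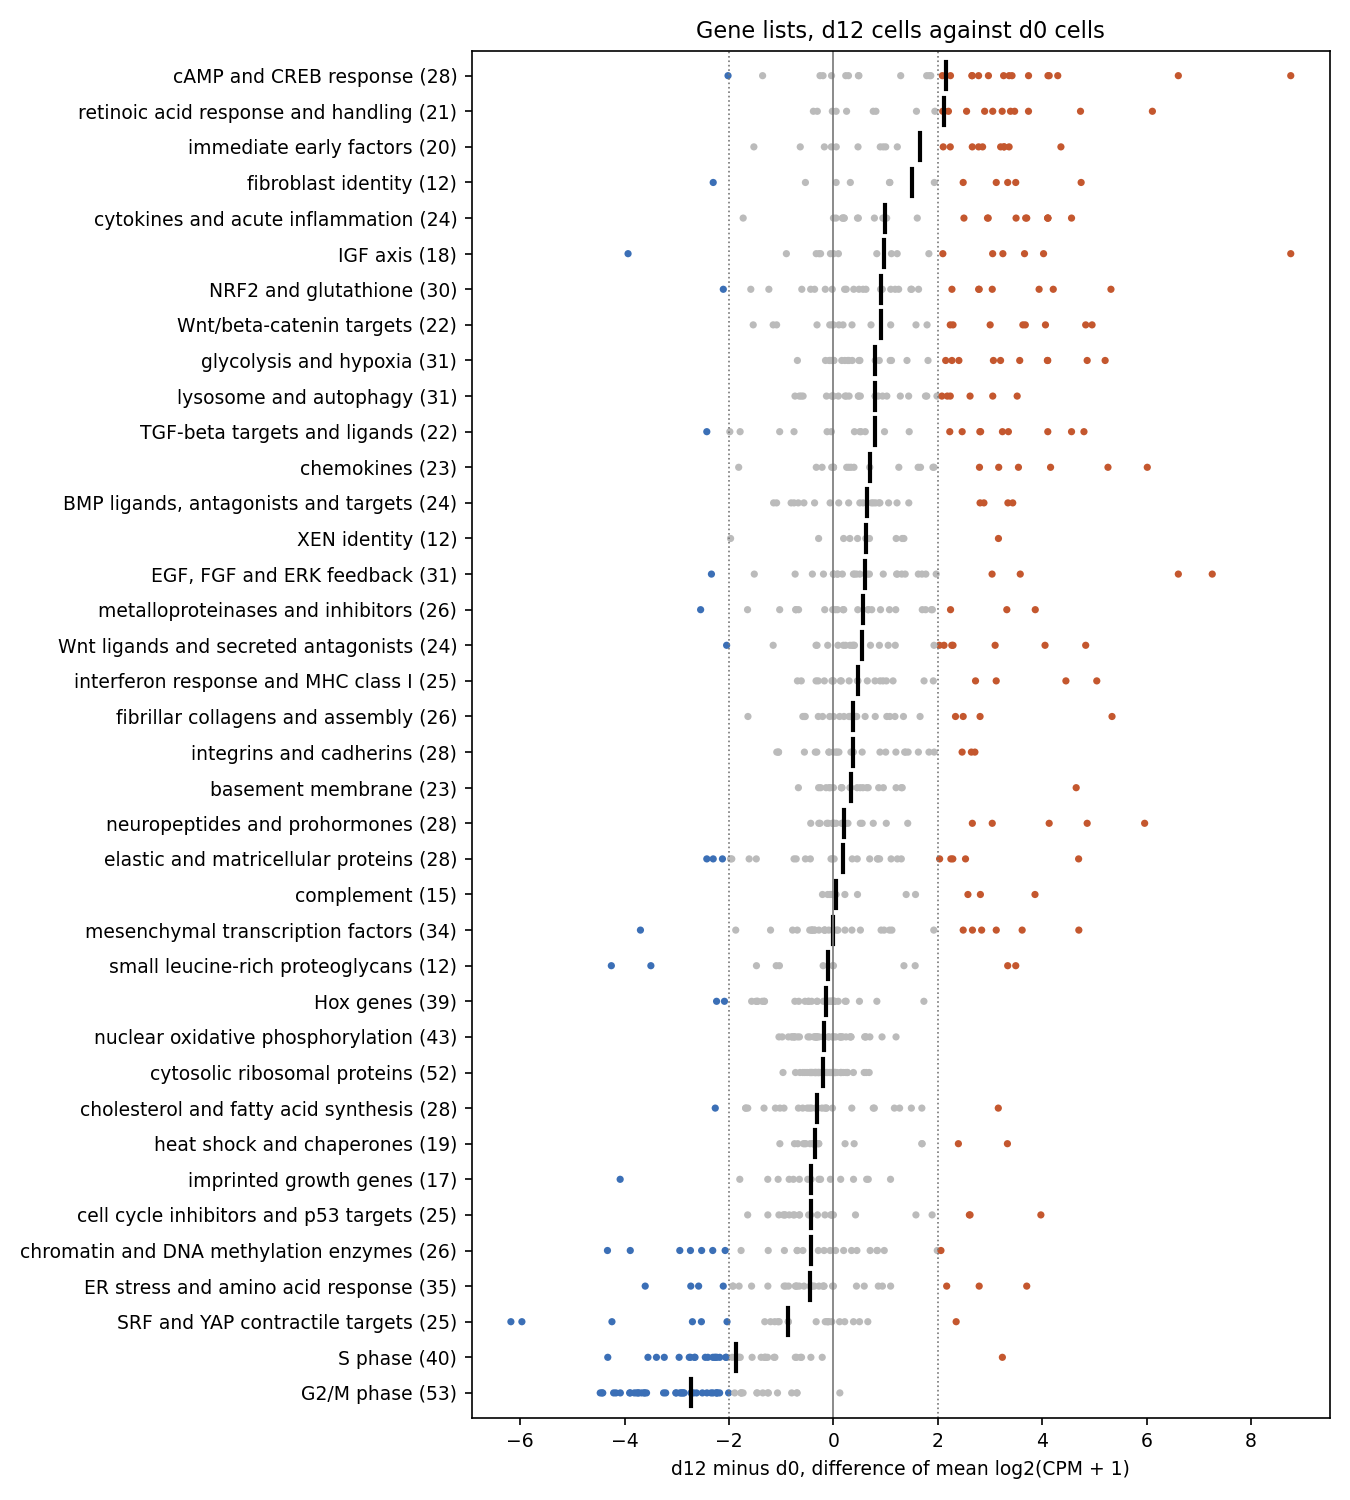
Differences of mean log2(CPM + 1), d12 minus d0, for the members of the gene lists, without the lists of other cell types. Each dot is a gene, red above 2 and blue below -2, and each black bar is the list's median. The cAMP and retinoic acid lists have the highest medians (2.16 and 2.13) and the G2/M list the lowest (-2.72).

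TGF-beta and activins signal through related receptors, and RepSox blocks the one that TGF-beta uses. The list of their ligands, receptors and targets had 9 of 22 genes higher (40.9%), 1 lower and a median of 0.79 (-0.13 per ERCC UMI, 3 higher and 4 lower). Its higher genes included ligands and a cytokine, while the ligand genes *Tgfb1* (0.40) and *Tgfb3* (-0.12) did not pass 2. *Inhbb* and *Inhba*, the activin subunits, had 4.80 and 2.82, *Il11*, a cytokine of fibroblasts, 4.56, and the ligand gene *Tgfb2* 4.11. *Inhba* was abundant on both days, with 4.16, 207 and 2755 CPM in the lowest, median and highest d0 cell and 40.4, 2209 and 8093 CPM at d12, and 26 d12 cells lay above the d0 range. *Tgfbr2*, a TGF-beta receptor, had 3.24 and the transcription factor gene *Bhlhe40* 3.35, while *Ltbp2*, a matrix protein of the family that binds latent TGF-beta, had -2.43.

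Bone morphogenetic proteins (BMPs), their antagonists and their targets had 4 of 24 genes higher, 0 lower and a median of 0.65 (-0.29 per ERCC UMI, 0 higher and 0 lower). The ligand genes *Bmp2* and *Bmp7* had 3.43 and 3.34, and *Bmp1*, a protease in spite of its name, 2.81. *Bmp2* had a median of 2.55 CPM at d0 and 34.3 CPM at d12. The target gene *Id3* had medians of 949.9 and 1172 CPM, which is a difference of 0.29.

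Insulin-like growth factors (IGFs) act through receptors and are held by binding proteins, which proteases such as PAPP-A cleave. Of 18 genes of this axis 6 were higher and 1 lower, with a median of 0.97 (0.07 per ERCC UMI, 2 higher and 4 lower). *Igf1* had a median of 3.87 CPM at d0 and 183 CPM at d12, and a difference of 4.02. The binding protein genes *Igfbp2* and *Igfbp3* had 3.66 and 3.25. The 1 member lower by over 2 was *Igf2bp3*, an RNA-binding protein of embryonic cells, with -3.93. Imprinted growth genes, which are read from a single parental copy, had 0 of 17 higher and 1 lower with a median of -0.43 (-1.74 per ERCC UMI, 0 higher and 6 lower). The lower one was *Dlk1*, an inhibitor of fat cell formation, which had 105 CPM in the median d0 cell and 2.78 CPM in the median d12 cell (-4.09). *Igf2*, a growth factor of the embryo, differed by -0.25.

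Peptides that neurons and glands secrete formed an uneven list, with 5 of 28 genes higher, 0 lower and a median of 0.20 (0.04 per ERCC UMI, 3 higher and 0 lower), and 8 members had no UMI at d0. The higher genes were those of C-type natriuretic peptide (*Nppc*, 5.96), of the vessel-widening peptide adrenomedullin (*Adm*, 4.86), of tachykinins (*Tac1*, 3.04) and of enkephalin (*Penk*, 2.66), and *Vgf*. *Adm* had 0, 59.6 and 770.4 CPM in the lowest, median and highest d0 cell and 173, 1995 and 11623 CPM at d12, and 48 d12 cells were above the d0 range. *Nppc* was uneven among d12 cells: its median was 43.2 CPM and its highest cell had 7304 CPM, yet 61 d12 cells were above all d0 cells.

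Inflammatory mediators signal tissue damage to other cells. Of 24 cytokine and acute-phase genes 10 were higher (41.7%) and 0 lower, with a median of 1.00 (0.18 per ERCC UMI, 4 higher and 1 lower). *Ptges*, which completes the synthesis of prostaglandin E, had 0, 42.7 and 211 CPM in the lowest, median and highest d0 cell and 80.1, 772 and 3052 CPM at d12, and 59 d12 cells were above the d0 range. Its difference was 4.10, close to the 4.11 of *Ptgs2*, the enzyme upstream of it. *Il6*, the gene of interleukin 6, had UMIs in 9 of 72 d0 cells and 64 of 67 d12 cells (4.10), with 13.6 CPM in its median d12 cell, a low level to which the same limit applies. *Nfkbia*, the inhibitor that NF-kappaB induces, had medians of 101 and 1022 CPM and a difference of 3.50. Of the 24 genes, 8 had no UMI at d0, among them those of interleukin 1 and TNF.

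Chemokines, which attract white blood cells, had 6 of 23 genes higher, 0 lower and a median of 0.69 (0.31 per ERCC UMI, 3 higher and 1 lower). The largest differences were those of *Cxcl2* (6.01), *Cxcl1* (5.26) and *Cxcl5* (4.16), which draw neutrophils, while *Cxcl3* (1.25) and *Cxcl15* (0.69) did not pass 2. *Cxcl2* had UMIs in 11 of 72 d0 cells and 66 of 67 d12 cells, with a d12 median of 50.6 CPM and a highest cell of 5352 CPM. *Cxcl12* and *Cxcl14*, which stromal cells make, had 3.54 and 3.17. *Ccl2*, which draws monocytes, stood apart with medians of 567 CPM at d0 and 60.2 CPM at d12 (-1.82).

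The interferon and antigen-presentation list had 4 of 25 genes higher, 0 lower and a median of 0.47 (0.08 per ERCC UMI, 2 higher and 1 lower). The higher ones were the antiviral genes *Ifitm1* (5.04) and *Bst2* (3.12), the MHC class I gene *H2-K1* (4.45) and the proteasome subunit gene *Psmb8* (2.72), whereas *Ifitm3*, the most abundant member, differed by 0.46. Complement had 3 of 15 genes higher, 0 lower and a median of 0.05 (0.01 per ERCC UMI, 1 higher and 0 lower). The higher genes included *Serping1*, an inhibitor of the first protease complex (3.86), and the protease gene *C1ra* (2.58).

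Fibroblast identity genes remained present at d12. Of 12 markers 5 were higher (41.7%) and 1 was lower, with a median of 1.51 (-0.33 per ERCC UMI, 1 higher and 2 lower). Their summed CPM had a lowest, median and highest value of 96.5, 3568 and 14359 at d0 and 677, 11121 and 57498 at d12. *Pdgfra*, the receptor that marks mesenchymal cells, had 0, 10.5 and 186 CPM in the lowest, median and highest d0 cell and 8.60, 355 and 1260.1 CPM at d12. For *Pdgfra* 58 d12 cells were above every d0 cell, and the difference was 4.74. *Col3a1*, a fibrillar collagen, had 2.49, and *Fbn1*, the fibrillin of elastic fibres, was the lower one with -2.30.

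Transcription factors of the mesenchyme differed in direction. Of 34 genes 6 were higher and 1 was lower, with a median of -0.01 (-0.23 per ERCC UMI, 1 higher and 2 lower), and 6 had no UMI at d12. *Tbx3* had 4.70, *Twist1* 3.61, *Twist2* 3.12 and *Aebp1*, a factor that binds a fat cell enhancer, 2.84. The lower one was *Osr1*, with -3.70: 62 of 72 d0 cells held a UMI of it and 33 of 67 d12 cells. *Prrx1*, a factor of limb mesenchyme, had 1.07. The summed list had a median of 1079 CPM at d0 and 4215 CPM at d12. Above the d0 range were 55 d12 cells, while 2 were below it. Abundant members weigh most in this sum, such as *Twist2* with means of 170.8 and 1499.5 CPM. Over single members 16 differences were positive and 17 negative.

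Fibroblasts build the matrix around them, and matrix genes went in both directions. Fibrillar collagens and their assembly enzymes had 4 of 26 genes higher, 0 lower and a median of 0.38 (-0.77 per ERCC UMI, 1 higher and 2 lower). *Adamts2*, which trims procollagen, had 5.34, against 1.08 for *Col1a1* and 1.66 for *Col12a1*. The basement membrane had 1 of 23 higher, 0 lower and a median of 0.33 (-0.32 per ERCC UMI, 1 higher and 0 lower), and its higher gene was *Col18a1* (4.65), the collagen from which endostatin is cut. Elastic and matricellular proteins had 5 of 28 higher, 3 lower and a median of 0.19 (-1.02 per ERCC UMI, 1 higher and 10 lower). In that list *Thbs2*, an inhibitor of vessel growth, had 4.70 and the glycoprotein gene *Tnc* 2.53, while *Thbs1*, the sister gene of *Thbs2*, had 0.88. *Spp1*, the bone matrix protein osteopontin, was looked at after its values were seen: it is among the lower genes with -2.13, but its mean was 343 CPM at d0 and 483 CPM at d12, so its direction depends on the measure.

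Small leucine-rich proteoglycans, which coat collagen fibrils, divided evenly, with 2 of 12 higher, 2 lower and a median of -0.10 (-0.21 per ERCC UMI, 0 higher and 3 lower). *Dcn* (decorin) had medians of 159.6 CPM at d0 and 1874 CPM at d12 (3.49), and *Lum* (lumican) 43.3 and 257 CPM (3.34). In contrast *Bgn* (biglycan) had medians of 391 and 24.7 CPM (-3.50), and *Aspn* (asporin) 37.8 and 0 CPM (-4.25). Proteases of the matrix and their inhibitors had 3 of 26 higher, 1 lower and a median of 0.56 (-0.09 per ERCC UMI, 1 higher and 4 lower). The higher genes were *Mmp2*, which cuts basement membrane collagen (3.32), and the plasminogen activator genes *Plau* (3.87) and *Plat* (2.24), and the lower one was *Adamts5*, which cuts aggrecan (-2.54). Integrins and cadherins, which hold cells to matrix and to each other, had 3 of 28 higher, 0 lower and a median of 0.38 (-0.03 per ERCC UMI, 0 higher and 3 lower), with *Itga11* (2.71), *Itga8* (2.64) and *Cdh13* (2.46) higher and *Itgb1* at -1.05.

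Downwards, the largest difference of all was that of *Acta2*, the smooth muscle actin that marks contractile fibroblasts, at chr19:34315580-34329826 of mm9. It had 66.5, 2727 and 17073 CPM in the lowest, median and highest d0 cell and 0, 11.5 and 3266 CPM at d12. Of 67 d12 cells, 48 lay below the lowest d0 cell and the others within the d0 range. The mean CPM was 16.7-fold lower at d12 and the difference -6.18. *Ctgf*, a secreted target of YAP and TGF-beta, came next, with a median of 106 CPM at d0 and 0 CPM at d12 and a difference of -5.97. It had UMIs in 67 of 72 d0 cells (93.1%, 84.5% to 97.7%) and 17 of 67 d12 cells (25.4%, 15.5% to 37.5%), although d12 cells were sequenced deeper.

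The list of SRF and YAP contractile targets as a whole had 1 of 25 genes higher, 6 lower (24%) and a median of -0.86 (-2.31 per ERCC UMI, 0 higher and 16 lower). *Tagln*, an actin-binding protein of smooth muscle, had medians of 677 and 38.2 CPM (-4.24), *Ankrd1*, a YAP target, -2.70 and *Actg2*, a second smooth muscle actin, -2.53. *Actb*, the actin of all cells, had 9113 CPM in the median d0 cell and 3769 CPM in the median d12 cell (-1.21). The 1 member higher by over 2 was *Cnn1*, a calponin that binds actin in smooth muscle, with 2.35. The other 18 members lay between -2 and 2, among them *Cyr61* (0.22) and *Amotl2* (-0.10).

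Other large downward differences belong to a mixed set of genes. *Anxa3*, an annexin, had medians of 909 and 20.3 CPM (-5.16), and 25 d12 cells were below the lowest d0 cell. *Tm4sf1*, a membrane protein of migrating cells, had -4.67 and *Crip2*, a LIM-domain protein, -4.57. *Nfib*, a transcription factor, had UMIs in 66 of 72 d0 cells and 11 of 67 d12 cells (-5.12), and *Zfhx3*, a further one, had -4.11. *Ptn*, the growth factor pleiotrophin, had -4.93. *Tnmd*, which marks tendon cells, had 4169 CPM in its highest d0 cell and 3.89 CPM in its highest d12 cell (-4.70).

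Genes of cell division made up the list with the lowest median. In the G2 and M phases cells make cyclin B, its kinase CDK1 and the motors of the spindle, and this program is silenced in cells that stop dividing. Of 53 such genes 38 were lower (71.7%) and 0 higher, with a median of -2.72 (-3.38 per ERCC UMI, 0 higher and 49 lower). *Cdk1*, at chr10:68799383-68815686 of mm9, had 9.12, 324 and 1902 CPM in the lowest, median and highest d0 cell and 0, 5.38 and 782 CPM at d12 (-4.47). Most d12 cells, 53 of 67, were below the lowest d0 cell, and the others were within the d0 range. *Ccnb1*, which encodes cyclin B, had -4.42, *Cbx5*, a protein of silent chromatin, -4.43, *Cenpe*, a kinetochore motor, -4.21, and *Smc4*, a condensin, -4.17.

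Per cell, the summed G2/M list had a lowest, median and highest value of 925, 7167 and 20794 CPM at d0 and 182, 693 and 9944 CPM at d12. Below the lowest d0 cell were 43 d12 cells, the others were within the d0 range, and 4 were above the median d0 cell. The 4 cells rich in *S100g* were among the 10 d12 cells with most *Cdk1* (6.75 to 9.36 in log2(CPM + 1)) and among the 6 with most *Hmgn2*, a nucleosome-binding protein. DNA synthesis genes of S phase had 18 of 40 lower (45%), 1 higher and a median of -1.86 (-2.66 per ERCC UMI, 0 higher and 30 lower). *Rrm2* and *Rrm1*, the subunits of the enzyme that makes deoxyribonucleotides, had -4.32 and -3.39, the helicase gene *Hells* -3.55 and the primase gene *Prim1* -3.24. The higher one was *E2f8*, a repressor of S-phase genes, with UMIs in 30 of 72 d0 cells and 65 of 67 d12 cells (3.24). *Pclaf*, which binds the replication clamp PCNA, had -4.53.

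Inhibitors of the cycle and targets of p53 had 3 of 25 genes higher, 0 lower and a median of -0.44 (-1.20 per ERCC UMI, 1 higher and 6 lower). The higher genes were *Gadd45a*, which responds to DNA damage (3.97), *Cdkn2a*, the locus of p16 and p19 (2.60), and *Glb1*, the lysosomal enzyme behind a stain for senescent cells (2.62). *Cdkn2a* had 16 UMIs at d0 (9.15 to 26.0) and 1386 at d12, and its median d12 cell held 3.22 CPM. *Cdkn1a*, the inhibitor p21 and the most abundant of the list, had medians of 1733 and 2289.8 CPM (0.42), and *Trp53* itself had -1.64.

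Promoters of genes that turn off outside division often carry the cell cycle genes homology region (CHR), with the letters TTTGAA, through which the DREAM complex represses them. This motif was sought on both strands of RefSeq promoters of 300 bases (GRCm38.p6). It was found in 32 of the 47 G2/M promoters matched (68.1%) and in 5 of 30 S phase promoters (16.7%), against 18.1% of all 27025 promoters and 11.7% of the 7002 of genes past the level filter. Among lower genes 89 of 321 promoters held it (27.7%), and among higher genes 47 of 527 (8.92%). The lower genes include 38 genes of the G2/M list, and no share was taken without them. To show where the letters sit in genes that were far lower at d12, the 4 G2/M promoters with the largest downward differences and a match before the gene start are printed, with capitals marking the motif on either strand. They are those of *Cdk1* (chr10:69352893-69352972, minus strand), *Top2a*, a DNA topoisomerase (chr11:99024173-99024252, minus strand), *Hmgb2*, a chromatin protein (chr8:57511773-57511852, plus strand), and *Cdc20*, which triggers anaphase (chr4:118437324-118437403, minus strand).
Cdk1: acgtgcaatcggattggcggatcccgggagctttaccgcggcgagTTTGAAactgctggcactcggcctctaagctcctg
Top2a: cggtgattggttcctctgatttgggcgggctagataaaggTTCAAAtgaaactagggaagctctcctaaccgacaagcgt
Hmgb2: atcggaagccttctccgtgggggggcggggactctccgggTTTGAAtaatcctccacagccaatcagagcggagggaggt
Cdc20: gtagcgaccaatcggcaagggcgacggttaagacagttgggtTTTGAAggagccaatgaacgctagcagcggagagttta

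The cAMP response element (CRE), TGACGTCA, is the full palindrome that CREB binds. It was found in 3 of the 22 cAMP-list promoters matched (13.6%), against 1.88% of all promoters and 3.74% of those past the level filter. Over all higher genes it was in 11 of 527 promoters (2.09%), and over lower genes in 10 of 321 (3.12%), both shares lying between those of all promoters and of promoters past the level filter. Shown are the stretches of *Areg* (chr5:91139498-91139577, plus strand), of *Dusp1*, a phosphatase of the MAP kinases with a difference of 3.74 (chr17:26508576-26508655, minus strand), and of *Dio2* (chr12:90739094-90739173, minus strand), in which capitals mark the motif. *Areg* and *Dusp1* are the list members with the largest differences that hold it before the gene start, and *Dio2* is a further such gene among the 20 largest upward differences. A match in letters does not show that a factor binds there.
Areg: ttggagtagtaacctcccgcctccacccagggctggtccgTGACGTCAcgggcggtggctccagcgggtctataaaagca
Dusp1: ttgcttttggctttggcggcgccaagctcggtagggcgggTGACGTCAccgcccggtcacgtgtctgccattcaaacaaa
Dio2: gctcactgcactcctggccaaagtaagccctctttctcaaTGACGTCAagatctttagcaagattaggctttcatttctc

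Chromatin proteins had 7 of 26 genes lower (26.9%), 1 higher and a median of -0.44 (-1.75 per ERCC UMI, 0 higher and 11 lower). *Hmgn2*, whose protein loosens chromatin, had 225, 2068 and 5168 CPM in the lowest, median and highest d0 cell and 12.8, 72.5 and 3231 CPM at d12. For this gene 54 of 67 d12 cells were below the lowest d0 cell, and the difference was -4.33. *Hmgb2* had -3.89. *Ezh2* and *Eed*, subunits of the Polycomb enzyme that silences genes, had -2.52 and -2.94, and *Uhrf1*, which copies DNA methylation in S phase, had -2.74. *Hmgb2* and *Uhrf1* are also in the G2/M and S phase lists. The gene of the EPZ004777 target, *Dot1l*, was the 1 higher gene of the list with 2.06, a value taken after it was seen. Hox genes, which record position along the body, had 0 of 39 higher and 2 lower with a median of -0.14 (-0.21 per ERCC UMI, 0 higher and 2 lower), and 12 had no UMI at d12. The lower ones were *Hoxa7* (-2.24) and *Hoxc5* (-2.09), and the summed list had a median of 202 CPM at d0 and 81.3 CPM at d12.

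Genes of stress responses went in different directions. The NRF2 list, which protects against oxidants, had 7 of 30 higher, 1 lower and a median of 0.91 (-0.44 per ERCC UMI, 3 higher and 5 lower). *Srxn1*, which repairs peroxiredoxins, had 5.32 and *Hmox1*, which degrades heme, 3.94, with medians of 34.3 and 500.0 CPM. The lower one was *Nqo1*, a classical NRF2 target outside the rule for named genes, with -2.11. The list of ER stress and amino acid shortage had 3 of 35 higher, 4 lower and a median of -0.45 (-1.99 per ERCC UMI, 0 higher and 17 lower), with *Phgdh*, the entry enzyme of serine synthesis, at -3.61, *Gdf15*, a stress hormone, at -2.73 and *Ddit3*, the death factor CHOP, at -2.58. *Cebpb* and *Slc7a11*, a cystine transporter gene, were higher in it (3.70 and 2.79). Heat shock proteins had 2 of 19 higher, 0 lower and a median of -0.35 (-2.14 per ERCC UMI, 0 higher and 10 lower), and the higher ones were the small chaperone genes *Cryab* (2.39) and *Hspb8* (3.33).

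Cells short of oxygen turn to glycolysis and signal for new vessels. The glycolysis and hypoxia list had 10 of 31 genes higher (32.3%), 0 lower and a median of 0.80 (-0.43 per ERCC UMI, 4 higher and 2 lower). *Ndrg1*, which hypoxia induces, had medians of 1.08 and 146 CPM (5.20), *Vegfa*, the vessel growth factor, had 4.10, and *Hk2* and *Pfkfb3*, which speed the first steps of glycolysis, had 3.57 and 4.10. Lysosome and autophagy genes had 6 of 31 higher, 0 lower and a median of 0.80 (-0.86 per ERCC UMI, 0 higher and 3 lower). *Ctsb*, a cathepsin, had 32.2, 359 and 1993 CPM in the lowest, median and highest d0 cell and 807, 3661 and 17648 CPM at d12, and 58 d12 cells were above the d0 range (3.52). Its relative *Ctsl* had 2.18 and the autophagy gene *Gabarapl1* 3.05. Cholesterol and fatty acid synthesis had 1 of 28 higher, 1 lower and a median of -0.32 (-1.77 per ERCC UMI, 0 higher and 9 lower): the higher gene was *Dhcr7*, the last step to cholesterol (3.16), and the lower *Lss*, which closes the sterol rings (-2.26).

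Housekeeping lists depended on the scale. Of 52 ribosomal protein genes 0 were higher and 0 lower, with a median of -0.20 and a largest upward difference of 0.68 (*Rpl10a*). Oxidative phosphorylation genes of the nucleus had 0 of 43 higher, 0 lower and a median of -0.19, from -1.04 (*Uqcrc2*) to 1.20 (*Sdhc*). Per ERCC UMI the ribosomal list had a median of -2.08 with 30 of 52 lower by over 2, and the oxidative phosphorylation list -1.98 with 21 of 43 lower. *Malat1*, an abundant nuclear RNA, had medians of 20027 and 30709 CPM.

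XEN markers were found at low levels. Of 12 markers 1 was higher, 0 lower, and the median difference was 0.63 (0.23 per ERCC UMI, 0 higher and 1 lower). The higher one was *Sox17* (3.16), with UMIs in 1 of 72 d0 cells and 63 of 67 d12 cells, but 20 CPM or more in 11 of 67 d12 cells (16.4%, 8.49% to 27.5%). In contrast 38 of 51 cells from day 12 colonies and 38 of 38 cells of day 20 reached that level. *Gata4*, *Foxa2* and *Sall4*, further factors of the endoderm or of stem cells, reached 20 CPM in 4, 2 and 2 of the 67 d12 cells. The summed list had medians of 222 CPM at d0 and 214 CPM at d12. Most of the d0 sum came from *Col4a1*, *Lamb1* and *Dab2*, with means of 148, 71.6 and 55.1 CPM of a summed mean of 287 CPM. At d12 these had means of 99.7, 92.7 and 37.0 CPM. Over single members 10 differences were positive and 2 negative.

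The level of XEN RNAs in d12 cells was measured with 9 transcripts that had at least 200 CPM at day 20 and at most 10 UMIs over all d0 cells. Their median d12 cell stood at 0% to 3.32% of the day 20 mean, with a median of 0.576% over the 9 genes, 1 of which was found in every d12 cell. The fewest cells were 3 of 67, for *Myl3*, a myosin light chain. *S100g* had no UMI at d0 and 68.3, 111 and 21370 CPM in the lowest, median and highest d12 cell, which is 0.607% of its day 20 mean at the median. Without the 4 cells over 10000 CPM its difference was 6.92. *Aqp8*, a water channel, had a median of 9.57 CPM and *Cyp26a1*, a retinoic acid hydroxylase, 5.55 CPM, at 0.706% and 0.247% of day 20. At day 8, 12 of 62 cells held a UMI of *S100g*. Whether such levels are made by each cell or carried between cells in handling, pooling or sequencing was not tested.

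*S100g* and *Gkn1* were the 2 genes in which the days did not overlap. *Gkn1* encodes gastrokine, a secreted protein of the stomach lining, and was chosen after its values were seen. It had no UMI at d0 and 12.7, 25.0 and 6964 CPM in the lowest, median and highest d12 cell. Its mean was 221 CPM at d12, 79.7 CPM in day 12 colony cells and 0 CPM at day 20. In both genes the highest cell stood far above a median cell whose level was low.

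Markers of other cell types were looked for among d12 and d0 cells. Epithelial genes had 4 of 16 higher, 0 lower and a median of 1.34 (0.59 per ERCC UMI, 1 higher and 0 lower). The higher ones were the keratin genes *Krt8* (5.29), *Krt18* (3.56) and *Krt19*, and the tight junction gene *Cldn4* (2.61). *Krt8* had 21.3, 38.6 and 4271 CPM in the lowest, median and highest d12 cell, so that the high values sit in few cells. Without the 4 cells rich in *S100g* the difference of *Krt8* was 4.96. *Krt23*, a further keratin gene and 1 of the 20 largest upward differences (6.28), had a median of 49.9 CPM at d12.

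Skeletal muscle genes had 1 of 20 higher, 0 lower and a median of -0.07 (-0.32 per ERCC UMI, 0 higher and 0 lower). A single d0 cell held 89720 summed CPM of this list, with the next at 1663 CPM. The higher gene, *Acta1*, the actin of skeletal muscle, turns on the measure: its difference was 2.08, but its mean was 184 CPM at d0 and 12.5 CPM at d12, and the log2 ratio of the means was -3.78. Its mean was 3.80 CPM at d0 without that cell and 1045 CPM in day 12 colony cells. The d12 cells held low levels of it, with 0, 11.3 and 31.3 CPM in the lowest, median and highest cell.

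The smooth muscle and pericyte list had 1 of 10 higher (*Cnn1*), 1 lower and a median of 0.08 (-0.07 per ERCC UMI, 0 higher and 2 lower). Its lower gene was *Cspg4*, the pericyte proteoglycan NG2, with UMIs in 52 of 72 d0 cells and 4 of 67 d12 cells (-3.54). Tendon genes had 0 of 7 higher and 1 lower (*Tnmd*), with a median of -0.02 (-0.32 per ERCC UMI, 0 higher and 1 lower). Endothelial genes had 1 of 10 higher, 0 lower and a median of 0.01 (-0.02 per ERCC UMI, 0 higher and 0 lower), and the higher one was the VEGF receptor gene *Kdr* (2.29), while *Pecam1* had no UMI on either day. Neural and glial genes had 2 of 19 higher, 0 lower and a median of 0.03 (0.00 per ERCC UMI, 1 higher and 0 lower). The higher ones were *Rorb*, a nuclear receptor of neurons, with UMIs in 66 of 67 d12 cells and 33 of 72 d0 cells (5.62), and the calcium-binding protein gene *S100b* (3.37).

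Pluripotency genes had 2 of 15 higher, 0 lower and a median of 0 (0.00 per ERCC UMI, 2 higher and 1 lower). The higher ones, *Klf5* (4.75) and *Tbx3*, are also made by other tissues, and *Pou5f1*, the defining factor, had no UMI on either day. Macrophage and blood genes (13), bone and cartilage genes (17), fat genes (13) and trophoblast genes (13) each had 0 higher and 0 lower, with medians of 0, 0, 0 and 0.06. Their summed CPM in the median d12 cell was 5.46, 43.0, 20.8 and 17.0, against 0, 29.3, 16.7 and 0.377 in the median d0 cell.

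The levels of some of these genes on other days are given next, for genes already chosen by their d12 difference. Some genes stood high at d12 and not at day 8. *Ereg* had means of 15.9, 1.62 and 1223 CPM at d0, day 8 and d12, and *Areg* had 4.06, 0.942 and 959 CPM. *Inhba* was lower at day 8 than at d0, with 444, 117 and 2534 CPM, and so was *Cxcl2*, with 7.96, 0 and 433 CPM. *Stc1* (9.42, 459 and 3309.8 CPM) and *Adm* (141, 417 and 2701 CPM) lay between those days at day 8. Others had reached their d12 level by day 8. *Pla2g7* had 16.0, 879.7 and 946 CPM, *Ctsb* 403, 4349 and 4612 CPM, and *Penk* 85.3, 1147 and 1145 CPM.

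Lower genes also differed in time. *Ctgf* had a mean of 263 CPM at d0 and 7.84 CPM at day 1 already, *Acta2* 3668 and 655 CPM, and *Tnmd* 489 and 11.5 CPM. In contrast the summed G2/M list had a median of 7167 CPM at d0, 6754 CPM at day 1, 3619.9 CPM at day 3, 1304 CPM at day 4, 2487 CPM at day 5, 1173 CPM at day 8 and 693 CPM at d12. *Ctgf* and *Acta2* thus stood far lower at day 1 than at d0, while the median of the division list was near its d0 level then. Its mean over cells was 7004 CPM at d0, 6110.0 CPM at day 3, 3014 CPM at day 4, 7030.4 CPM at day 5, 2348 CPM at day 8 and 1702 CPM at d12.

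**Figure D3:**
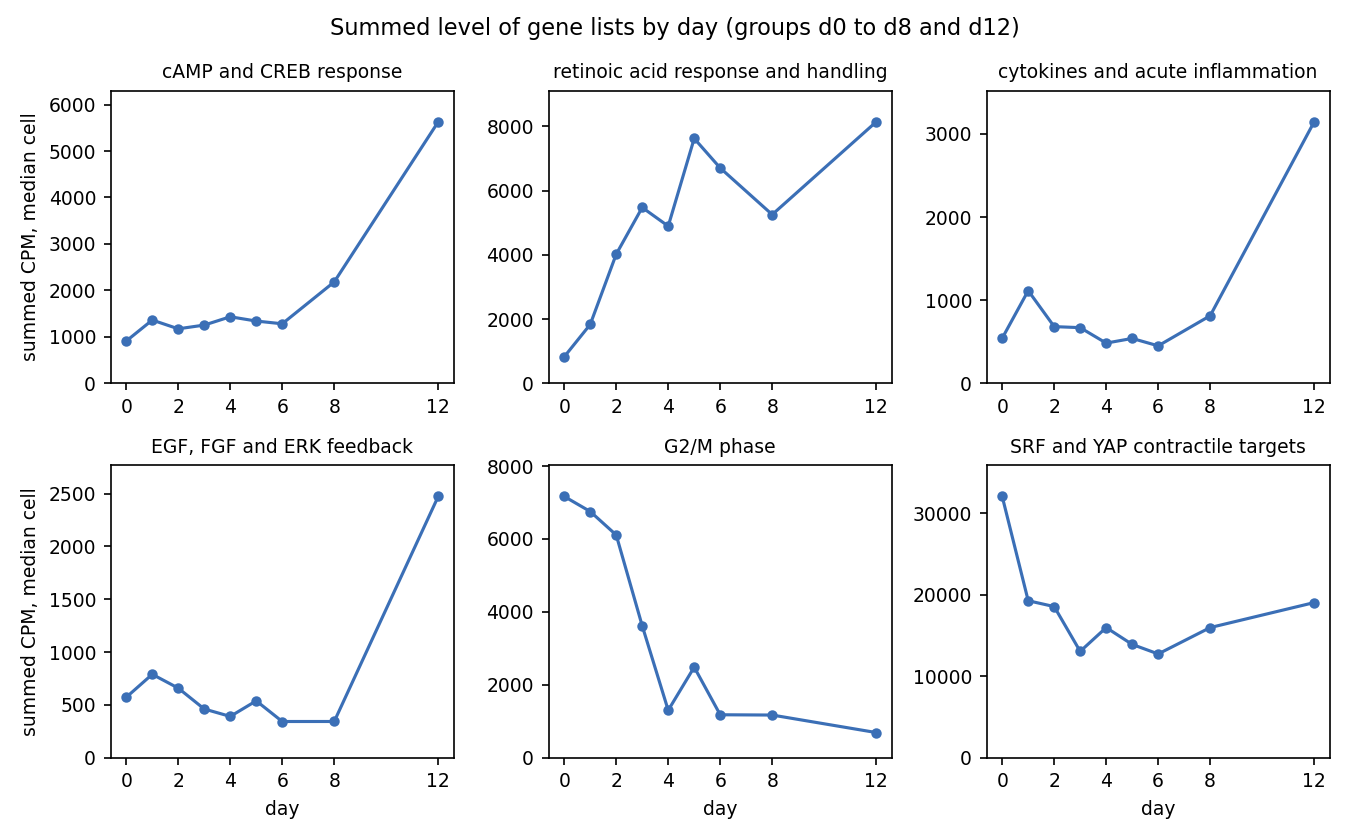
Median over cells of the summed CPM of 6 gene lists by day, on a linear axis, up to d12, for the groups not picked from colonies. The G2/M list stands at 7167 CPM at d0 and 693 CPM at d12, and the cAMP list at 909 and 5628 CPM.

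Running numbers in the cell names gave a rough split, since batches are not named. The 45 d12 and 43 d0 cells numbered 1 to 48 gave 792 higher and 438 lower genes. The 22 d12 and 29 d0 cells numbered above 48 gave 688 and 489. *Stc1* had 9.25 and 7.94, and *Acta2* had -6.34 and -5.88. Whether these ranges stand for batches was not tested.

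Among themselves the d12 cells varied somewhat less than d0 cells. Over the 3872 genes whose mean reached 3 in log2 units on both days, the median SD over cells was 1.82 at d12 and 2.02 at d0, and 2587 of them had the larger SD at d0. The genes with the largest SD at d12, ranked after the values were seen, included *Nefl*, a filament protein of neurons, with 0, 9.57 and 2919 CPM in the lowest, median and highest d12 cell and an SD of 3.21 (1.53 at d0). *Selenop*, a selenium carrier, had an SD of 3.11, *Socs2*, an inhibitor of growth hormone signalling, 3.10, and *Sostdc1*, an antagonist of BMP and Wnt, 3.05. *Tagln* was among them too, with an SD of 2.99 against 1.55 at d0, and 28 of 67 d12 cells lay below the lowest d0 cell. The days differ in depth too, and its part in these SDs was not tested.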

How the data were processed

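The count matrix deposited by the authors was used as given: counts of UMIs per gene and cell, aligned by the authors to the mm9 transcriptome and de-duplicated by UMI. The labels give polyA RNA and paired reads of 150 bases from a HiSeq X-Ten. Of the rows, 92 were ERCC RNAs and were left out of CPM, 4 were left out because their names repeat, and 26 carry names that read as dates and were kept as they stand. Members and gene lists were chosen with earlier results from these data known. A gene was called where its difference passed 2. Since no cell could be tied to a batch, each day counted as 1 sample and no test was made. Named genes are the ends of the ranking and the leading members of each list. Work was done with Python 3.11.15 and R 4.3.3.

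Limits: d0 and d12 differ in compounds, medium and days in culture at once. CPM gives shares of a cell's RNA, and ERCC shares differ between the days. Cells were picked by hand, d12 cells were sequenced deeper, and carry-over between cells was not tested. RNA levels say nothing about protein, binding or activity of a pathway.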

Additional observations from a re-analysis of the deposited data

How the results depend on the processing

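The main setting gave 693 higher and 403 lower genes. With a pseudocount of 10 there were 206 higher and 68 lower. The log2 ratio of mean CPM gave 1069 higher and 583 lower, with 525 of the 693 and 221 of the 403 still called and 1 gene of each turned in sign (*Acta1* and *Spp1*), and the difference of medians over cells gave 953 higher and 863 lower. A threshold of 1 gave 1901 higher and 1564 lower, and a threshold of 3 gave 311 and 91. A level filter of 3 left 415 higher and 239 lower. UMIs per ERCC UMI, added later, gave 164 higher and 2167 lower. *Acta1*, higher by 2.08 in the main setting, was reversed to -3.78 with the log2 ratio of mean CPM, through 1 d0 cell. The label check gave 2 d12 cells above 0 and, with summed CPM and no collagens, 4. List medians depended on the setting too. Of the 7 above 1 or below -1, 6 moved with a pseudocount of 10 and 3 with the difference of medians over cells. Apart from the ERCC scale, each other setting tried for them moved at most 1, and 0 were reversed in sign. Per ERCC UMI the median of the fibroblast identity list changed sign, from 1.51 to -0.33. The others of the 7 kept their sign, but that of the immediate early factors fell from 1.66 to 0.15.

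Counts were close to the main ones with TMM factors (736 and 367) and with DESeq2 size factors (725 and 369). The minimum of genes moved the lower count more than the higher one. With no minimum there were 704 and 305, with a lower one 698 and 369, and with a higher one 635 and 539. With cells thinned to 50000 UMIs the counts were 599 and 467. Without the 2 d12 cells above 0 in the label check they were 713 and 421, and without 1 d0 cell rich in muscle RNAs 691 and 412. A paired analysis was not possible, since cells carry no batch.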
